A study of Mus musculus with 24 samples.

Results

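The comparison described here is that between the distal (tip) and the proximal (hinge) end of the mandible, the lower jaw, in mouse embryos that lack the TGF-beta type II receptor in neural crest cells. Its members are the 3 arrays titled as distal mutant mandible and the 3 titled as proximal mutant mandible, which make up 6 of the 24 arrays of the series. They were set against the 3 distal and 3 proximal arrays of control mandibles, and the 12 maxilla (upper jaw) arrays were used only in an alternative fit. All embryos were C57B6 and were collected at embryonic day 14.5. The mutants came from crosses of Wnt1-Cre;Tgfbr2 fl/+ mice with Tgfbr2 fl/fl mice and were picked out by a cleft palate and a calvarial (skull vault) defect, while the controls were their littermates, whose own alleles the sources used here leave out. Wnt1-Cre recombines floxed alleles in neural crest cells, so the receptor is retained in jaw epithelium, skeletal muscle, the inner lining of vessels and blood cells of the mutants. The labels do not say whether an array holds 1 embryo or several, so the p-values reflect spread among these samples, which may be technical.

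The lower jaw forms from the first pharyngeal arch. Neural crest cells give rise to its bone, cartilage, tendon and other connective tissue, and they are told where they lie along the jaw by signals from the epithelium and by endothelin. Transcription factors of the Hand, Msx and Alx families mark the distal midline, whereas Barx1 and others mark the proximal, molar-forming part. TGF-beta signals pass through the type II receptor to the Smad proteins and act on the growth and differentiation of this mesenchyme. The comparison asks which of these regional differences are found in a mandible whose crest cells lack the receptor.

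The promoters of 4 regional genes are shown because their transcripts marked opposite ends of the jaw in both genotypes. The windows run from 250 bases before to 50 bases after the RefSeq gene start (build GRCm38.p6, 5′ to 3′ on the gene's strand). Capitals mark matches on either strand to 3 short motifs, namely TAATTA, the core bound by many homeodomain proteins, CAGAC, the Smad-binding core, and CANNTG, the E-box bound by basic helix-loop-helix proteins such as Hand2. No match of 1 motif overlapped a match of another in these windows.
Hand2, higher distally (chr8:57320733-57321032, plus strand): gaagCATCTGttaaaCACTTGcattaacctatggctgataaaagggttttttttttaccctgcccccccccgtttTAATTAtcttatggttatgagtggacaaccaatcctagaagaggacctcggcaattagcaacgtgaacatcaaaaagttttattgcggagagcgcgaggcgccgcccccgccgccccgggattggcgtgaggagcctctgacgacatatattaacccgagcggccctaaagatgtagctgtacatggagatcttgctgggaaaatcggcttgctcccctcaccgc
Isl1, higher distally (chr13:116309639-116309938, minus strand): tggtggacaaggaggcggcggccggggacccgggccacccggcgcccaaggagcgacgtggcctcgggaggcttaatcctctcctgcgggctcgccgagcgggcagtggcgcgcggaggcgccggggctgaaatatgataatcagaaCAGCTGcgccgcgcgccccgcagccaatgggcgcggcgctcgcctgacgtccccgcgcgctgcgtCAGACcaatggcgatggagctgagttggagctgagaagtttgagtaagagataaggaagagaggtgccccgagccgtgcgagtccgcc
Msx2, higher distally (chr13:53472731-53473030, minus strand): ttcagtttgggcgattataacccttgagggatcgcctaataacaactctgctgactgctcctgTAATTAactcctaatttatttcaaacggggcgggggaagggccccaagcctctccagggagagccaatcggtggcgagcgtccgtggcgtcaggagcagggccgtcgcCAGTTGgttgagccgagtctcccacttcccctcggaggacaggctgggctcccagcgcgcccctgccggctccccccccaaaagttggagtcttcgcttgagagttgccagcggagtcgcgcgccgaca
Barx1, higher proximally (chr13:48662786-48663085, plus strand): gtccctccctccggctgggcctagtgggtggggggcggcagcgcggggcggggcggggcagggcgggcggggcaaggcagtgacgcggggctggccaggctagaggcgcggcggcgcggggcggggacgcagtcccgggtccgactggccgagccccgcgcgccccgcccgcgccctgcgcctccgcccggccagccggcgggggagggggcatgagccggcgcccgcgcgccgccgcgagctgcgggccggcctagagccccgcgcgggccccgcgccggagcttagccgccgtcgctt
The Hand2 window held 1 TAATTA and 2 E-boxes, the Isl1 window 1 CAGAC and 1 E-box, and the Msx2 window 1 TAATTA and 1 E-box. The Barx1 window held 0 matches to any of the 3. Windows of Six2, Nr2f1 and Qrfpr were also scanned and are not shown. For the proximal genes, the Six2 window held 1 CAGAC, Nr2f1 window 1 held 0 matches and Nr2f1 window 2 held 3 E-boxes. The Qrfpr window held 1 CAGAC and 3 E-boxes. Distal and proximal genes were not compared for their matches. Among 32851 RefSeq windows of the same length, 5.29% held TAATTA, 49.6% held CAGAC and 72.3% held an E-box. These matches describe the letters of the windows and are not evidence of binding.

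Values are log2 RMA values, so a difference of 1 is 2-fold, and a difference is always distal minus proximal. Tgfbr2 itself measured 12.41, 12.36 and 12.37 in mutant distal arrays and 12.21, 12.26 and 12.30 in mutant proximal arrays, against 12.07, 12.12 and 12.02 in control distal arrays and 11.95, 11.89 and 11.95 in control proximal arrays. The position of its probes relative to the deleted part of the gene is not stated, so this level does not check the genotype labels. It did not pass the test between the ends in mutants (0.12 ± 0.06, SE of the limma fit, n = 3 arrays per group, as for every ± below, adjusted p = 0.121). Poly-A control RNAs moved with the ends: their mean over 24 probe sets was 10.3, 9.997 and 10.1 in mutant distal arrays, against 8.42, 9.21 and 9.34 in mutant proximal arrays, and 9.27, 9.47 and 10.2 in control distal arrays, against 8.16, 9.12 and 8.84 in control proximal arrays. With that mean as a covariate, an alternative chosen after the data were seen, 823 genes were called between the ends of the mutant mandible in place of 3451, and the part of these spike levels in the results was not otherwise tested. All 6 mutant arrays carried both Xist (12.5 to 13.1) and the Y-linked Eif2s3y (8.81 to 9.59), so neither tracked the ends. Xist is transcribed in female and Eif2s3y in male cells. The control arrays differed by pair: pair 1 had 13.3 and 13.4 for Xist and 7.47 and 7.66 for Eif2s3y, and pair 3 had 6.56 and 6.38 for Xist and 10.2 and 9.98 for Eif2s3y (distal, then proximal). Control pair 2 carried both, as the mutant arrays did, with 12.6 and 12.4 for Xist and 9.55 and 9.45 for Eif2s3y. Whether the arrays with both held embryos of both sexes was not tested.

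Both genotypes had many genes that differed between the ends, and most of those found in controls were also found in mutants. Of 12811 genes tested, 3451 (26.9%) differed in mutant mandibles, 2115 (16.5%) higher and 1336 (10.4%) lower in the distal end (limma with Benjamini-Hochberg adjustment, adjusted p under 0.05). In control mandibles 1018 genes (7.95%) differed, 439 (3.43%) higher and 579 (4.52%) lower. Of the 1018 genes called in controls, 900 were called the same way in mutants, which is 88.4% of the control calls and 26.1% of the mutant calls. A further 105 had the same sign without a call, 12 had the opposite sign without a call, and 1, Ngfr, was called the opposite way. The median ratio of the mutant to the control difference over the 1018 genes was 1.27, and 71.5% had the larger difference in mutants. Since these genes were picked on the control values, this ratio is a description. The share of mutant calls that were higher was 61.3%. It was 33.9% with the poly-A covariate (279 higher and 544 lower), 47.2% with the muscle and chondrocyte marker means as covariates, and 48.9% without proximal mutant array 1, whose upper quartile (9.16) was below that of every other mandible array. With the replicate number as a block, mutant calls came to 5079 (39.6%), control calls to 1663 and shared calls to 1428. With the muscle and chondrocyte marker means as covariates, mutant calls came to 89 and shared calls to 83, while control calls came to 1212. Shared calls were then 6.85% of the control calls, in place of 88.4%. Leaving out distal mutant array 3 gave 2227 mutant calls. Leaving out proximal control array 1 gave 562 control calls and 502 shared calls, leaving out distal control array 1 gave 641 and 589, and leaving out distal control array 3 gave 674 control calls.

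**Figure D1:**
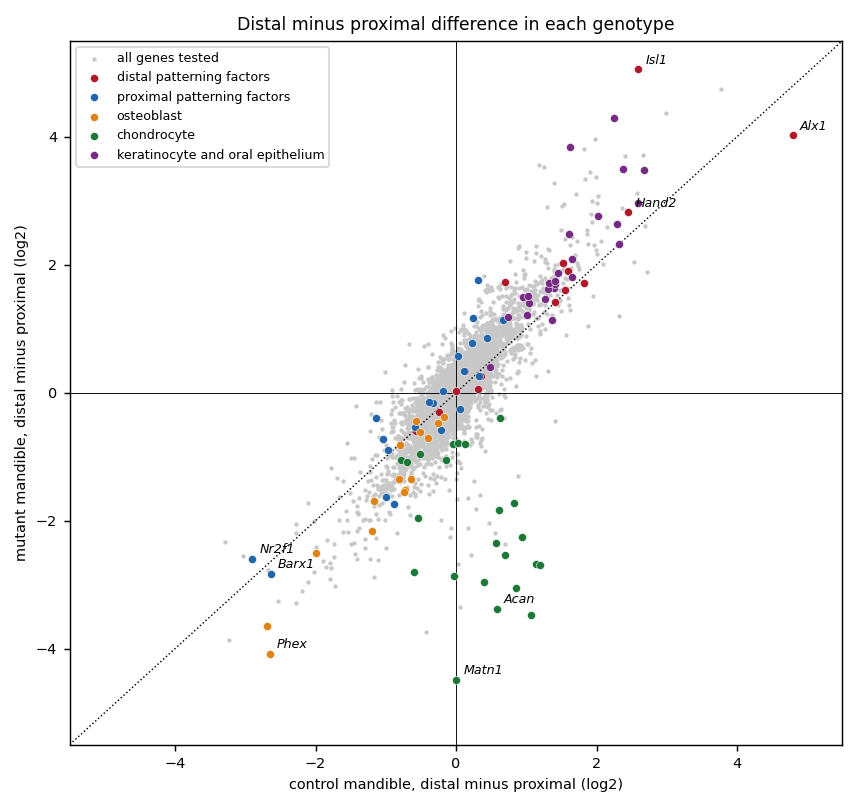
Each point is 1 gene, with its distal minus proximal difference (log2) in mutant mandibles on the vertical axis and in control mandibles on the horizontal axis. The dotted line marks equal differences, and colours mark members of 5 gene lists. Many patterning factors lie near the line, and Isl1 lies above it. The osteoblast genes had a larger median difference in mutants (-1.35) than in controls (-0.74). Most chondrocyte genes lie far below the line, with Matn1 at -4.48 in mutants and 0.00 in controls.

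The distal patterning factors that differed between the ends of control mandibles also differed in mutants. Of 20 listed factors, 15 were tested, and 9 were higher in the distal end of mutants and 0 lower, with a median difference of 1.61 (all genes tested: 0.07). In controls 9 were also higher and 0 lower (median 1.41, all genes tested 0.00), and all 9 control calls were called the same way in mutants. Isl1, a LIM homeodomain factor of the distal arch, measured 11.64, 11.07 and 11.51 in mutant distal arrays, against 6.16, 6.55 and 6.36 in mutant proximal arrays. The mutant groups were far apart, with a difference of 5.05 ± 0.47 (adjusted p = 3.1e-05). In controls it measured 10.76, 10.26 and 10.74 in control distal arrays, against 6.85, 7.78 and 9.34 in control proximal arrays, a difference of 2.59 ± 0.47 (adjusted p = 0.00684). The control proximal arrays were spread over more than 2 log2 units, whereas the mutant ones lay close together. Proximal control array 3, with the 9.34, also had the highest mean of the 15 neuronal genes tested. Centred over the mandible arrays, that mean was 1.32, against -0.44 to 0.09 in all other mandible arrays. The part of this neuronal signal in the control difference of Isl1 was not tested. The 2 differences were not shown to differ after adjustment over all genes (2.46, 95% interval 1.002 to 3.91, unadjusted p = 0.00341, adjusted p = 0.273).

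Alx1, a homeodomain factor of the frontonasal and distal jaw mesenchyme, measured 11.65, 12.35 and 11.88 in mutant distal arrays, against 7.63, 8.06 and 8.11 in mutant proximal arrays. In controls its values were 12.02, 11.91 and 11.58 in control distal arrays, against 7.25, 7.80 and 6.09 in control proximal arrays. Neither genotype had any overlap between ends, and the differences were 4.02 ± 0.35 in mutants and 4.79 ± 0.35 in controls (adjusted p = 2.22e-05 and 3.68e-05). Hand2, the basic helix-loop-helix factor that endothelin switches on in the distal arch, measured 12.40, 12.98 and 12.74 in mutant distal arrays, against 9.48, 9.96 and 10.23 in mutant proximal arrays. Control values were 12.56, 12.49 and 12.19 in control distal arrays, against 9.78, 10.01 and 10.09 in control proximal arrays. The mutant and control differences of Hand2, 2.82 ± 0.19 and 2.45 ± 0.19, were not shown to differ (genotype difference 0.36, 95% interval -0.24 to 0.97, adjusted p = 0.67). Both Hand2 and Alx1 kept their mutant call under all 23 alternative settings. Isl1 kept it under 22 and lost it with the muscle and chondrocyte means as covariates (adjusted p = 0.235).

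The other distal factors called in mutants were Tfap2a (2.03), an AP-2 factor needed for crest and epithelium, Msx2 (1.90), a BMP-responsive homeodomain factor, Tlx1 (1.73), Pax3 (1.71), a paired-box factor of early crest, Zic1 (1.61) and the forkhead factor Foxd1 (1.42). Msx2 measured 10.44, 10.26 and 10.27 in mutant distal arrays, against 8.18, 8.66 and 8.43 in mutant proximal arrays. Pax3 measured 10.57, 11.07 and 10.88 in mutant distal arrays, against 8.91, 8.94 and 9.53 in mutant proximal arrays. Every distal value of both genes was above every proximal one. Tlx1 measured 8.26, 7.88 and 8.25 in mutant distal arrays, against 6.48, 6.30 and 6.41 in mutant proximal arrays, and 7.47, 7.35 and 7.52 in control distal arrays, against 6.52, 6.63 and 7.11 in control proximal arrays. Its difference was 1.73 ± 0.15 in mutants and 0.70 ± 0.15 in controls, and the genotype difference of 1.03 did not pass (unadjusted p = 0.000451, adjusted p = 0.15). Zic1 and Foxd1 lost their calls with either covariate fit, Zic1 also with all 24 arrays in the fit, and Foxd1 also without distal mutant array 2 or proximal mutant array 1. The proximal mutant values of Isl1, Tlx1 and Zic1 were all below the median of their arrays. Hand1 (0.06), Msx1 (0.26), Prrx1 (0.03), Gsc (-0.30) and Tfap2b (-0.59) did not pass in mutants, and Prrx2 (0.33, adjusted p = 0.173) passed only with the replicate block (adjusted p = 0.00969).

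**Figure D2:**
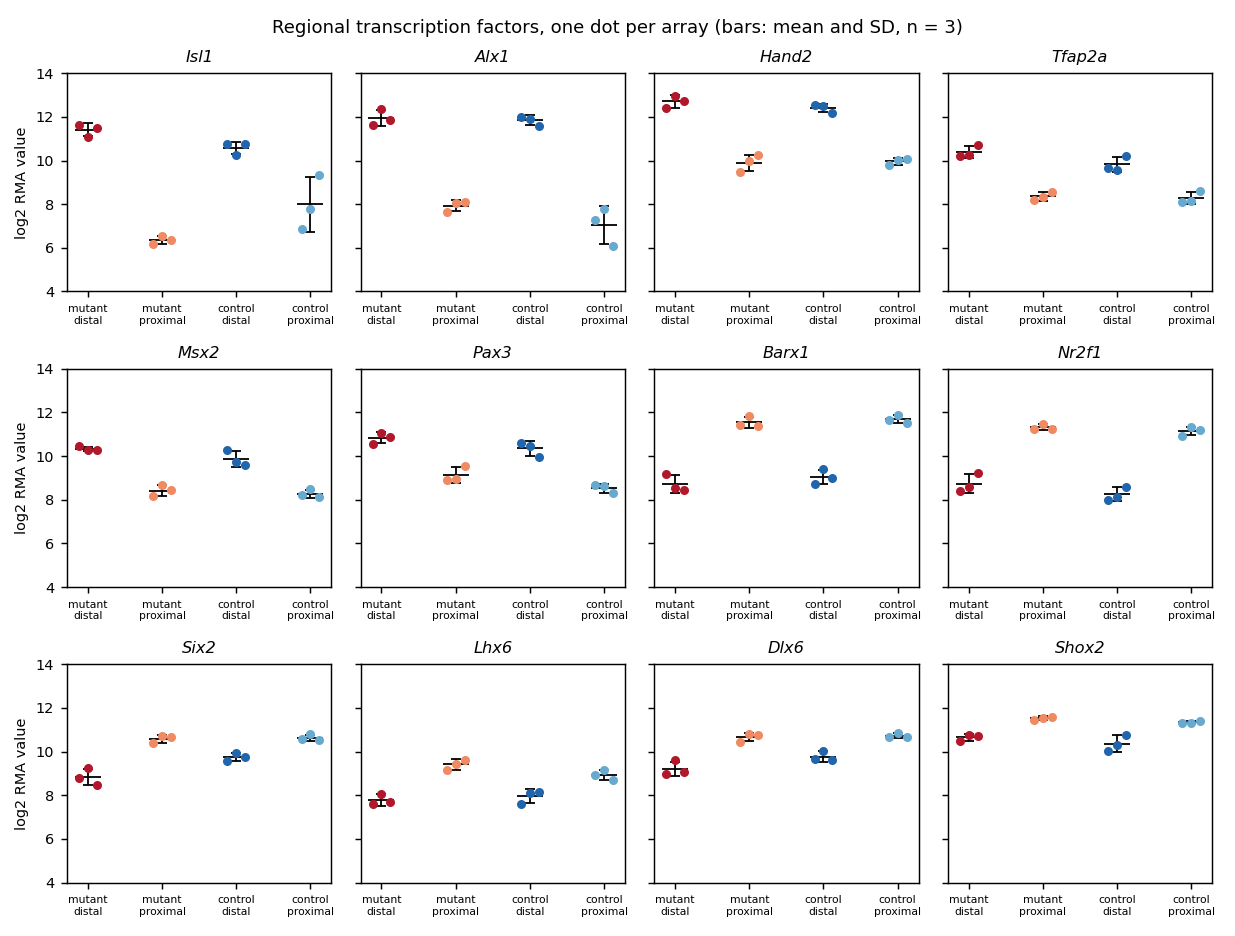
Log2 RMA values of 12 transcription factors, with 1 dot per array and bars for the mean and SD of 3 arrays, in the order mutant distal, mutant proximal, control distal, control proximal. Isl1, Alx1, Hand2, Tfap2a, Msx2 and Pax3 are higher distally and Barx1, Nr2f1, Six2, Lhx6, Dlx6 and Shox2 higher proximally in both genotypes.

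Proximal patterning factors were mixed. Of 22 listed, 21 were tested, and 7 were lower and 5 higher in the distal end of mutants (median -0.16), against 7 lower and 1 higher in controls (median -0.22). Of the 8 control calls, 7 were called the same way in mutants. Barx1, a homeodomain factor of the molar region, measured 9.16, 8.56 and 8.43 in mutant distal arrays, against 11.43, 11.84 and 11.38 in mutant proximal arrays. In controls it measured 8.74, 9.41 and 8.999 in control distal arrays, against 11.67, 11.87 and 11.52 in control proximal arrays. The differences, -2.83 ± 0.22 in mutants and -2.64 ± 0.22 in controls (adjusted p = 8.43e-06 and 6.59e-05), were close in size. Nr2f1, an orphan nuclear receptor, measured 8.40, 8.57 and 9.22 in mutant distal arrays, against 11.26, 11.49 and 11.24 in mutant proximal arrays. Control values were 8.002, 8.13 and 8.60 in control distal arrays, against 10.93, 11.33 and 11.19 in control proximal arrays, and the differences were -2.60 ± 0.21 in mutants and -2.90 ± 0.21 in controls. Barx1 and Nr2f1 kept their mutant calls under all 23 alternatives.

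Six2, a homeodomain factor of the proximal jaw mesenchyme, measured 8.77, 9.25 and 8.48 in mutant distal arrays, against 10.39, 10.69 and 10.66 in mutant proximal arrays. The control values were 9.56, 9.94 and 9.74 in control distal arrays, against 10.57, 10.79 and 10.54 in control proximal arrays. Its difference was -1.75 ± 0.17 in mutants and -0.89 ± 0.17 in controls, and the genotype difference did not pass (95% interval -1.40 to -0.32, unadjusted p = 0.0051, adjusted p = 0.283). Also lower in the distal end of mutants were Lhx6 (-1.63), a LIM homeodomain factor of the oral mesenchyme, Shox2 (-0.89), Nr2f2 (-0.73) and Tbx15 (-0.59). The first 3 of these were also called in controls (-0.99, -0.98 and -1.05). Tbx15 was not called in controls (-0.22, adjusted p = 0.556), and it lost its mutant call without distal mutant array 1 or 3 and without proximal mutant array 2 or 3, with all 24 arrays, with averaged probe sets and with the marker covariates.

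A total of 5 members of that list ran the other way in mutants. Meis1, a TALE homeodomain cofactor, measured 10.14, 9.74 and 10.002 in mutant distal arrays, against 7.64, 8.74 and 8.22 in mutant proximal arrays. Its difference was 1.76 ± 0.35 in mutants (adjusted p = 0.00395) and 0.31 ± 0.35 in controls (adjusted p = 0.741). The other 4 were Tbx1 (1.14), Tshz2 (0.85), Meis2 (0.78) and Dlx2 (0.57), and of these Tbx1 was also called in controls (0.66). Meis2 lost its call without distal mutant array 1 or 3, without proximal mutant array 1 or 3 and with either covariate fit, and Dlx2 with all 24 arrays and with either covariate fit. Dlx1 was the 1 factor called only in controls: it measured 9.41, 9.22 and 9.499 in mutant distal arrays, against 9.49, 9.99 and 9.84 in mutant proximal arrays, and 8.82, 8.58 and 9.07 in control distal arrays, against 9.71, 10.32 and 9.87 in control proximal arrays. The control difference was -1.14 ± 0.18 (adjusted p = 0.00303) and the mutant one -0.40 ± 0.18 (adjusted p = 0.121), with a genotype difference of 0.74 that did not pass (adjusted p = 0.408). Emx2 (1.16), Irx3 (-0.54) and Lhx8 (0.25) passed in mutants only with the replicate block (adjusted p = 0.00507, 0.0328 and 0.0403). Pou3f3, Pitx1, Irx5, Tshz1 and Tbx18 lay between -0.25 and 0.34 and did not pass.

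In the endothelin and Dlx list, which covers the signal that sets lower-jaw identity and its targets, 15 of 16 genes were tested, and 2 were higher and 5 lower in the distal end of mutants (median -0.21). In controls 2 were higher and 4 lower, and all 6 control calls were called the same way in mutants. Dlx6, a distal-less homeodomain factor, measured 8.97, 9.59 and 9.05 in mutant distal arrays, against 10.44, 10.82 and 10.75 in mutant proximal arrays. No values overlapped, and the difference was -1.47 ± 0.17 (adjusted p = 0.000179), against -0.98 ± 0.17 in controls. Its neighbours in the pathway were Dlx5 (-0.62), Dlx3 (-0.44) and Mef2c (-0.78), a MADS-box factor. Dlx3 lost its call under 7 of 23 alternatives, among them leaving out distal mutant array 1 or 2 or proximal mutant array 3. Edn1, the ligand, had a small mutant difference (-0.29 ± 0.10, adjusted p = 0.0481) with none called in controls (0.11). Its call held under 9 of 22 alternatives, and leaving out any of 9 single arrays ended it. Ece1, which activates endothelin, was higher distally (0.58 in mutants, 0.30 in controls), as was Hand2. Ednrb, Furin, Dlx4, Gnaq and Gna11 did not pass, and Plcb4 (-0.35) passed only with the block (adjusted p = 0.0301).

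Forkhead and midline factors had 6 higher and 2 lower of 12 tested in mutants (median 0.18), against 3 higher and 0 lower in controls. The higher ones were Foxd1, Foxf2 (1.27), a hedgehog target, Osr1 (0.85), Foxq1 (0.67), Foxd2 (0.52) and Foxp1 (0.30). Foxp1 lost its call under 15 of 23 alternatives, Foxq1 under 8 and Foxd2 under 5. These included leaving out distal mutant array 3 or proximal mutant array 2 for all 3 genes. Foxc1, a forkhead factor of skull bone and cartilage, measured 9.11, 9.39 and 9.36 in mutant distal arrays, against 10.19, 10.45 and 10.52 in mutant proximal arrays. That difference of -1.09 ± 0.12 (adjusted p = 9.65e-05) compares with -0.40 ± 0.12 in controls (adjusted p = 0.07), and the genotype difference did not pass (adjusted p = 0.228). Foxp2 was also lower (-1.02) and lost its call under 7 of 23 alternatives, among them leaving out distal mutant array 2 or 3 or proximal mutant array 2 or 3. Foxc2 (-0.82) passed only with the block (adjusted p = 0.0018), and Foxf1, Foxl2 and Osr2 did not pass. The first arch normally lacks Hox expression. Of 15 Hox genes 5 were tested and 0 passed in either genotype. Hoxa3, Hoxa5, Hoxb3, Hoxc4 and Hoxd1 differed by -0.26 to 0.31 in mutants, which does not measure whether they are expressed. Hoxa5 and Hoxb3 were above the array median in all 24 arrays. Hoxd1 was above it in 0, Hoxc4 in 2 and Hoxa3 in 3 of the 12 mandible arrays, so their differences are read from dim values.

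Of 22 tooth germ genes tested, 11 were higher and 3 lower in the distal end of mutants (median 0.39), against 8 higher and 3 lower in controls (median 0.36). All 11 control calls were called the same way in mutants. Shh, the hedgehog ligand of the dental epithelium, measured 12.16, 11.60 and 11.52 in mutant distal arrays, against 9.97, 9.80 and 10.06 in mutant proximal arrays. The ends did not overlap, with a difference of 1.82 ± 0.20 in mutants and 1.39 ± 0.20 in controls. Sp6, an epithelial zinc finger factor of the tooth, was also higher (1.58 and 1.10). The 3 lower genes were Barx1, Lhx6 and Ambn, which encodes an enamel matrix protein and differed by -1.61 in mutants and -0.66 in controls.

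Signalling genes between the ends were led by the Wnt list. Of 26 tested, 14 were higher and 5 lower in the distal end of mutants (median 0.45), against 6 higher and 3 lower in controls (median 0.22), and all 9 control calls were called the same way in mutants. Wnt5a, a ligand for outgrowth of the arch, measured 12.07, 12.44 and 12.53 in mutant distal arrays, against 10.61, 10.65 and 10.98 in mutant proximal arrays. It differed by 1.60 ± 0.14 in mutants and 1.504 ± 0.14 in controls. Wnt4 (1.80), Wnt6 (1.54), Wnt7b (1.39) and the Wnt target Sp5 (1.94) were higher, and the secreted inhibitor Dkk1 was lower (-1.37). With the poly-A covariate 2 Wnt genes were higher and 2 lower, and 0 passed with the muscle and chondrocyte covariates.

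In the BMP list 3 of 21 genes were higher and 4 lower in mutants (median 0.06), and all 5 control calls were called the same way. With the replicate block 15 were called (71.4%, against 39.6% of all genes tested), 8 of them lower. Bmp4, a ligand of the distal epithelium and mesenchyme, was higher distally (0.84 in mutants, 0.76 in controls), as was Id4 (1.01). The antagonists Chrdl1 (-1.99) and Nog (-0.74), the modulator Bmper (-1.55) and the ligand Bmp2 (-0.87) were lower, and Nog lost its call without distal mutant array 1 or 3 or proximal mutant array 2. Hedgehog genes had 6 higher and 1 lower of 15 in mutants (median 0.17), a share of 46.7% against 26.9% of all genes tested. Controls had 3 higher and 1 lower, and all 4 were called the same way in mutants. The mutant calls included the inhibitor Hhip (0.56) and, as the lower one, Ihh (-1.06), the ligand of growing cartilage. Hhip lost its call without distal mutant array 2 or 3 or proximal mutant array 1. The distal mutant values of Ihh and Nog were all below their array medians, so the size of their differences is read against dim values. FGF genes had 4 higher and 2 lower of 18 (median 0.13), a share of 33.3% that, like the BMP list's, is near the 26.9% of all genes tested. With the block 10 FGF genes were called (55.6%, against 39.6% of all genes tested). The receptor Fgfr3, prominent in cartilage, differed by -1.05 ± 0.17 in mutants and -0.14 ± 0.17 in controls, and Etv4 and Fgf9 were higher (0.71 and 0.67). In the list of retinoic acid and guidance genes 8 of 24 were higher and 4 lower in mutants (median 0.14), a share of 50%. Controls had 3 higher and 3 lower, and 4 of these 6 were called the same way in mutants. Aldh1a2, which makes retinoic acid, measured 8.80, 9.31 and 9.01 in mutant distal arrays, against 10.51, 10.96 and 10.59 in mutant proximal arrays. It was lower distally by a similar amount in both genotypes (-1.65 ± 0.16 in mutants, -1.38 ± 0.16 in controls), while Cyp26a1, which breaks retinoic acid down, was higher in mutants (0.77).

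Within the TGF-beta pathway itself, 0 ligand, receptor or Smad genes were higher and 3 of 18 were lower in the distal end of mutants (median 0.04). That share of 16.7% is below the 26.9% of all genes called. Tgfb1, a ligand, measured 8.02, 8.29 and 8.04 in mutant distal arrays, against 9.33, 9.25 and 9.22 in mutant proximal arrays. Its difference was -1.15 ± 0.18 in mutants and -0.998 ± 0.18 in controls. Tgfb3 (-0.72) and the coreceptor Tgfbr3 (-0.55) were lower in mutants without a control call (-0.24 and -0.28). Tgfb2 was called higher in controls (0.32) and not in mutants (0.17, adjusted p = 0.096). Among 23 response genes 3 were higher and 5 lower (median -0.06), a share of 34.8%, and 13 were called with the block (56.5%, against 39.6% of all genes tested). The lower ones included Lox (-1.48), which crosslinks collagen, Tgfbi (-0.94) and Fn1 (-0.83), and the higher ones included Fbln5 (0.51) and Tagln (0.51), which lost its call without distal mutant array 1 or 3 or proximal mutant array 1 or 3.

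Bone genes were lower at the distal end in both genotypes. Of 15 osteoblast genes tested, 0 were higher and 14 lower in mutants (median -1.35), and the count was the same in controls (median -0.74), where all 14 calls matched those in mutants. In these pieces of tissue, fewer cells of a type and less RNA per cell cannot be told apart. Phex, a phosphate-regulating endopeptidase of bone cells, measured 8.78, 7.73 and 7.84 in mutant distal arrays, against 12.45, 11.88 and 12.25 in mutant proximal arrays. Control values were 8.04, 8.98 and 8.91 in control distal arrays, against 11.67, 11.21 and 11.01 in control proximal arrays. The differences were -4.08 ± 0.32 in mutants and -2.65 ± 0.32 in controls (genotype difference -1.43, adjusted p = 0.344). Dmp1, a mineral-binding matrix protein, measured 10.17, 9.32 and 9.41 in mutant distal arrays, against 13.502, 13.03 and 13.29 in mutant proximal arrays. It differed by -3.64 ± 0.26 in mutants and -2.70 ± 0.26 in controls. Ifitm5 (-2.51), Col1a1 (-2.16), the main bone collagen, Sp7 (-1.69), the osteoblast master factor, and Cthrc1 (-1.56) followed in mutants. The list's mean, centred over the 12 arrays, was -0.68, -0.81 and -0.75 in mutant distal arrays, against 0.82, 0.70 and 0.89 in mutant proximal arrays. Of the 15 genes, 10 had an unadjusted p under 0.05 for the genotype difference (limma) and 0 were called. With the replicate block, 2 of the 15 had a called genotype difference.

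Cartilage genes were lower at the distal end of mutants, with 0 higher and 19 lower of 23 tested (median -2.26), against 0 higher and 2 lower in controls (median 0.40). Matn1, a cartilage matrix protein, measured 6.32, 10.37 and 7.22 in mutant distal arrays, against 12.33, 12.80 and 12.23 in mutant proximal arrays. Control values were 10.73, 11.18 and 9.47 in control distal arrays, against 11.21, 11.55 and 8.61 in control proximal arrays. Acan, the main cartilage proteoglycan, measured 6.86, 10.05 and 7.46 in mutant distal arrays, against 11.42, 11.84 and 11.25 in mutant proximal arrays. Col2a1, the main cartilage collagen, measured 9.68, 12.71 and 9.62 in mutant distal arrays, against 13.51, 13.92 and 13.46 in mutant proximal arrays. In all 3 genes distal mutant arrays 1 and 3 were lowest and array 2 was nearer the proximal values. Their differences in mutants were -4.48 ± 0.98, -3.38 ± 0.91 and -2.96 ± 0.80, against 0.00 ± 0.98, 0.58 ± 0.91 and 0.40 ± 0.80 in controls.

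The genotype difference of these genes was not called (unadjusted p = 0.00813 for Matn1, 0.0109 for Acan and 0.0127 for Col2a1, adjusted p = 0.335, 0.367 and 0.393). Over the 23 genes, 16 had an unadjusted p under 0.05 for it and 0 were called, and 7 were called with the replicate block. The centred list mean was -1.90, 0.04 and -1.67 in mutant distal arrays, against 0.65, 1.19 and 0.89 in mutant proximal arrays, and 0.52, 0.70 and -0.40 in control distal arrays, against 0.39, 0.61 and -1.01 in control proximal arrays. Control pair 3 was low at both ends. The count of lower genes in mutants was 21 without distal mutant array 2, 9 without distal array 1, 8 without distal array 3, and 11, 10 and 12 without proximal mutant arrays 1, 2 and 3. It was 11 with all 24 arrays in the fit and 3 with the poly-A covariate.

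**Figure D3:**
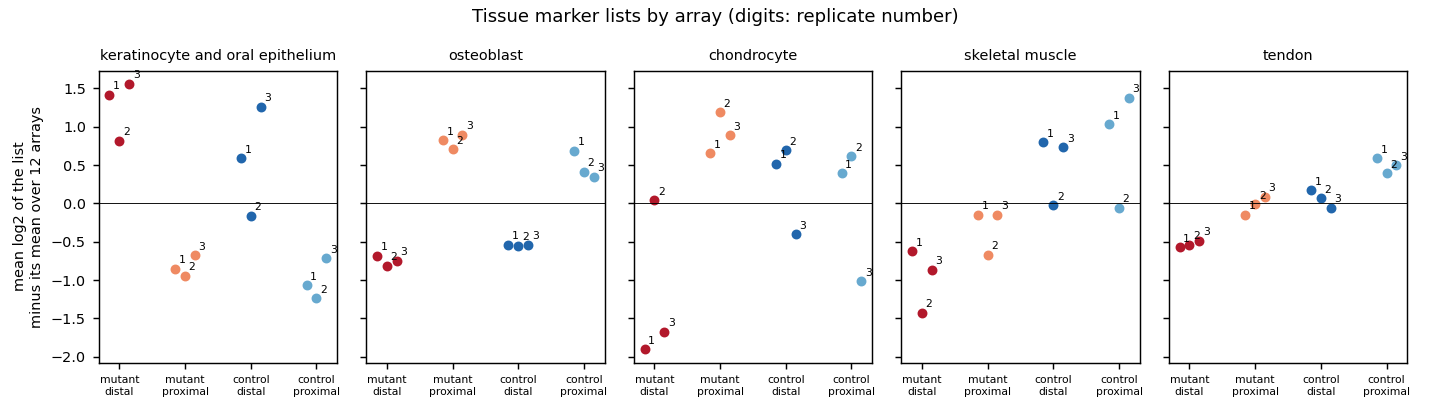
Mean log2 value of 5 marker lists in each mandible array, minus the list's mean over the 12 arrays, in the order mutant distal, mutant proximal, control distal, control proximal, with digits for the replicate number. Osteoblast means are lower distally in both genotypes, and chondrocyte means are lowest in distal mutant arrays 1 and 3.

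Epithelial genes were higher at the distal end. Of 25 keratinocyte and oral epithelium genes tested, 24 were higher and 0 lower in mutants (median 1.74), against 18 higher and 0 lower in controls (median 1.41), and all 18 control calls were called the same way in mutants. Krt6b, a keratin of stratified oral epithelium, measured 10.46, 9.17 and 10.46 in mutant distal arrays, against 5.77, 5.61 and 5.82 in mutant proximal arrays. Krt1, a keratin of differentiating layers, measured 11.70, 10.68 and 12.16 in mutant distal arrays, against 7.88, 7.70 and 8.52 in mutant proximal arrays. Both sets were apart, with differences of 4.29 ± 0.53 and 3.49 ± 0.48 in mutants and 2.25 ± 0.53 and 2.67 ± 0.48 in controls. The centred list mean was 1.42, 0.82 and 1.56 in mutant distal arrays, against -0.85, -0.94 and -0.68 in mutant proximal arrays. With the poly-A covariate 9 of the 25 were higher in mutants, and with the muscle and chondrocyte covariates 4. Several genes given above, among them Shh, Sp6, Wnt4, Wnt6, Wnt7b and Tfap2a, are also expressed in epithelium, and the part of the epithelial share in their differences was not tested.

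Skeletal muscle genes did not pass between the ends of the mutant mandible, with 0 of 31 called (median -0.63). With the replicate block 25 passed (80.6%, against 39.6% of all genes tested), 24 of them lower. In controls 0 were higher and 2 lower. Their centred mean was -0.62, -1.42 and -0.86 in mutant distal arrays, against -0.15, -0.67 and -0.15 in mutant proximal arrays. Myog, the myogenic regulator, differed by -0.71 ± 0.29 (adjusted p = 0.0921, and 0.0235 with the block). Of 16 tendon genes 6 were lower and 0 higher in mutants (median -0.29), a share of 37.5% against 26.9% of all genes tested. Controls also had 6 lower and 0 higher (median -0.36), and 5 of these 6 were called the same way in mutants. Those lower in mutants included Thbs4 (-1.43), Egr1 (-1.28, and -1.07 in controls) and Tnmd (-0.96), a marker of mature tendon that differed by 0.02 in controls. Tnmd lost its mutant call without distal mutant array 1 or 3 or proximal mutant array 3. Endothelial genes had 0 higher and 4 lower of 19 (median -0.18), such as Emcn (-0.52), and macrophage genes 0 higher and 4 lower of 15 (median -0.45), such as Csf1r (-0.72). These shares of 21.1% and 26.7% are near or below that of all genes. With the block 7 macrophage genes were called (46.7%, against 39.6% of all genes tested). Of 15 neuronal genes 0 passed in mutants. Of 11 Schwann and glial genes 6 were called in mutants with the block (54.5%, against 39.6% of all genes tested). In the main fit 2 were higher and 2 lower in mutants (36.4%, against 26.9% of all genes tested), and 0 higher and 1 lower in controls. One of them was Ngfr, the low-affinity neurotrophin receptor and a crest marker, which measured 10.07, 10.27 and 10.25 in mutant distal arrays, against 9.73, 9.84 and 9.82 in mutant proximal arrays, and 9.97, 9.97 and 9.89 in control distal arrays, against 10.42, 10.09 and 10.52 in control proximal arrays. Its differences of 0.40 ± 0.10 in mutants and -0.40 ± 0.10 in controls were called in opposite directions (adjusted p = 0.0155 and 0.0372), and the genotype difference of 0.80 did not pass (unadjusted p = 0.000188, adjusted p = 0.105). The mutant call of Ngfr was lost under 6 of 23 alternatives, namely all 24 arrays, averaged probe sets, either covariate fit, and without distal mutant array 2 or 3.

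Cell cycle genes had 10 higher and 1 lower of 23 tested in mutants (median 0.20), against 0 and 0 in controls (median 0.02). The mutant share was 47.8%, against 26.9% of all genes tested, and 0 of the 23 had a called genotype difference. The centred list mean was -0.06, 0.06 and -0.04 in mutant distal arrays, against -0.28, -0.14 and -0.15 in mutant proximal arrays. It was 0.13, 0.10 and 0.05 in control distal arrays, against 0.10, 0.12 and 0.12 in control proximal arrays, so the mutant proximal arrays were lowest. The changes were small: Kif11, a mitotic motor, differed by 0.43 ± 0.10, Bub1, a spindle checkpoint kinase, by 0.41 ± 0.08 and Mki67, a marker of cycling cells, by 0.31 ± 0.08. The number higher was 2 when the 6 mutant arrays were fitted alone, 3 without distal mutant array 2, 5 without distal mutant array 1 or 3 or proximal mutant array 1, and 0 with either covariate fit.

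A total of 17 genes outside the lists were among the 15 largest differences each way in mutants, and 11 of them were also called in controls in the same direction. Them5 (4.74), Qrfpr (4.37), a neuropeptide receptor, Odam (3.81), an odontogenic epithelial protein, Nts (3.72), the neurotensin precursor, and Serpinb12 (3.69) were higher distally. Shisa3 (-3.87), Mamdc2 (-3.29), Adgrd1 (-3.26), Cgref1 (-3.09), Col22a1 (-3.02) and Ppm1e (-2.96) were lower. Shisa3, an inhibitor of Wnt and FGF receptors in frog embryos, measured 6.18, 6.02 and 5.83 in mutant distal arrays, against 9.39, 10.12 and 10.13 in mutant proximal arrays. Control values were 5.85, 6.999 and 6.14 in control distal arrays, against 9.40, 9.58 and 9.72 in control proximal arrays, and no proximal value of either genotype reached down to a distal one. Nts measured 9.92, 10.80 and 10.60 in mutant distal arrays, against 6.51, 6.93 and 6.73 in mutant proximal arrays. The 6 others were not called in controls. C1qtnf3, a secreted C1q and TNF-related protein, measured 6.59, 9.95 and 7.31 in mutant distal arrays, against 11.51, 11.76 and 11.80 in mutant proximal arrays, and 11.03, 10.67 and 10.002 in control distal arrays, against 11.38, 11.17 and 10.46 in control proximal arrays. It differed by -3.74 ± 0.67 in mutants and -0.43 ± 0.67 in controls (adjusted p = 0.00208 and 0.831), and as with cartilage genes distal mutant array 2 was nearest the proximal values. Rlbp1 differed by -3.34 in mutants and 0.05 in controls. Csta1, a cystatin, Arg1, an arginase, Rptn and Idi2 were higher in mutants (3.97, 3.56, 3.53 and 3.45), with control differences of 1.97, 1.18, 1.26 and 1.91. None of the 6 had a called genotype difference (adjusted p from 0.227 to 0.607). The proximal arrays of Them5, Qrfpr, Krt6b, Serpinb12, Csta1, Arg1, Rptn and Idi2 were below their array medians in both genotypes, so these genes entered the test through arrays where they were high, and the size of their differences is read against dim values. Rptn was above the median in only 2 of the 12 mandible arrays. The distal arrays of Adgrd1 in both genotypes, and the distal mutant arrays of Shisa3 and Rlbp1, were likewise below their medians. Among all mutant calls 326 (9.45%) had the lower end below the median in all 3 arrays.

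Some control differences were not called in mutants. Prg4, the joint lubricant lubricin, measured 5.63, 6.504 and 5.78 in mutant distal arrays, against 6.17, 6.54 and 6.54 in mutant proximal arrays, and 8.29, 7.84 and 7.67 in control distal arrays, against 6.47, 7.02 and 6.07 in control proximal arrays. It was higher distally in controls (1.41 ± 0.27, adjusted p = 0.00939) and differed by -0.44 ± 0.27 in mutants (adjusted p = 0.244), but the genotype difference of -1.86 did not pass (95% interval -2.71 to -1.01, unadjusted p = 0.000551, adjusted p = 0.157). Cilp, a cartilage matrix protein, measured 6.11, 6.07 and 6.11 in mutant distal arrays, against 6.17, 6.05 and 6.53 in mutant proximal arrays, and 7.70, 7.55 and 6.84 in control distal arrays, against 8.65, 8.42 and 8.43 in control proximal arrays. Its control difference was -1.14 ± 0.19 and its mutant difference -0.15 ± 0.19, with both mutant ends below every control array. All 6 mutant values of Prg4 and of Cilp were below their array medians, so their mutant differences are read from dim values. Wnt16 was higher in controls (1.12) and had 0.504 in mutants (adjusted p = 0.0625). Actg2, Synpr, Adgrb3 and Nrcam were lower in controls (-1.06, -1.11, -1.05 and -0.93) and had the same sign without a call in mutants. Whether the high neuronal mean of proximal control array 3 enters these control differences was not tested.

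The difference between ends itself differed between genotypes for 11 genes (0.0859% of those tested), 4 with a more positive (0.0312%) and 7 with a more negative difference in mutants (0.0546%). At an unadjusted p under 0.05 there were 1195. None of the 11 was a listed patterning factor. Qrfpr measured 8.56, 8.53 and 8.86 in mutant distal arrays, against 4.08, 4.44 and 4.32 in mutant proximal arrays, and 7.48, 7.07 and 7.14 in control distal arrays, against 4.33, 4.16 and 4.21 in control proximal arrays. It was higher distally in both genotypes, by 4.37 ± 0.13 in mutants and 2.99 ± 0.13 in controls (genotype difference 1.38, adjusted p = 0.0357), with all 6 proximal values in the dim range named above. Aspn, asporin, an extracellular protein that binds TGF-beta, measured 10.97, 11.23 and 10.73 in mutant distal arrays, against 12.45, 12.45 and 12.65 in mutant proximal arrays, and 11.98, 12.15 and 12.05 in control distal arrays, against 12.47, 12.36 and 12.32 in control proximal arrays. The mutant distal arrays were the lowest of the 12, and the differences were -1.54 ± 0.11 in mutants and -0.32 ± 0.11 in controls (adjusted p = 0.0357 for the genotype difference of -1.22). Ccn1, a matricellular protein, measured 8.70, 8.83 and 8.83 in mutant distal arrays, against 10.09, 10.28 and 10.32 in mutant proximal arrays, and 9.85, 9.69 and 9.59 in control distal arrays, against 10.31, 10.09 and 9.94 in control proximal arrays, and again the distal mutant arrays were lowest. Cp, ceruloplasmin, measured 7.75, 7.86 and 7.58 in mutant distal arrays, against 9.10, 8.99 and 9.16 in mutant proximal arrays, and 7.59, 7.44 and 7.46 in control distal arrays, against 7.86, 7.48 and 7.60 in control proximal arrays, so that here the proximal mutant arrays stood apart from the other 9. With the replicate block 82 genes were called, 10 of these 11 among them. The count was 24 with a robust variance trend, 60 with array weights and 7 with averaged probe sets. It was 33 without distal mutant array 2, 16 without proximal control array 1, and 0 without any other single array, with all 24 arrays in the fit and with either covariate fit.

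**Figure D4:**
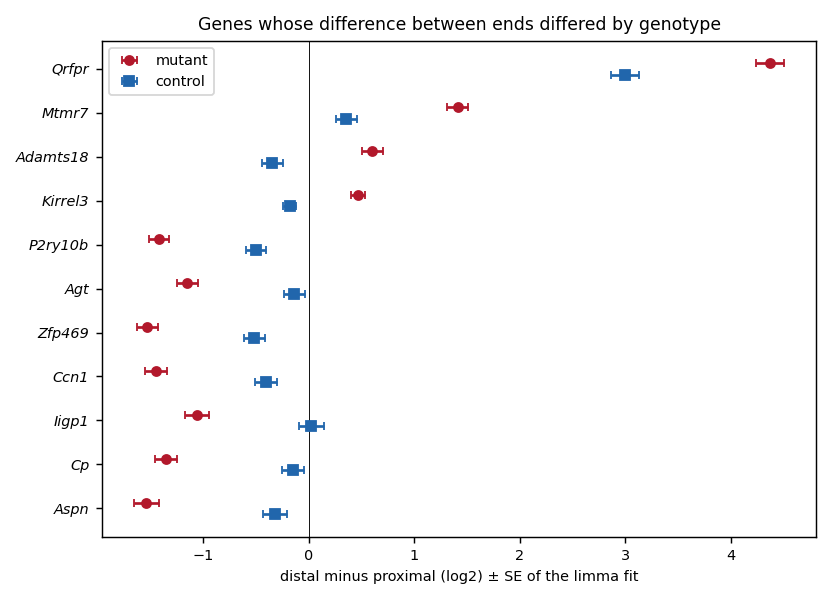
Distal minus proximal difference (log2, ± SE of the limma fit, n = 3 arrays per group) in mutant mandibles (circles) and control mandibles (squares) for the 11 genes with a called genotype difference. Qrfpr is above 0 in both genotypes, while Aspn, Cp, Zfp469, Ccn1 and P2ry10b are lower distally in mutants by more than in controls.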

How the data were processed

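RNA from distal and proximal jaw ends was measured on an Affymetrix mouse array, with 5 µg of total RNA per sample, per the labels' protocols. The deposited table holds log2 values for 45101 probe sets on 24 arrays, made by the authors with RMA and Partek 6.6, per the submitters' processing notes. RMA adjusts for background, sets arrays to a common distribution and combines the probes of a set, which compresses changes of dim genes. The log2 scale was taken from the values (3.44 to 14.8). Settings and genome build: not given in the sources used here.

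Probe sets with 1 gene symbol in the platform annotation were used (34945, of which 34741 matched RefSeq, GRCm38.p6, by Entrez identifier), and 932 with several symbols and 9211 unnamed ones were left out, as were 64 array controls. The probe set with the highest mean stood for each of 18193 genes. Genes above the array median in at least 3 arrays entered the test, which left 12811. Columns of no listed sample numbered 0. Precision is limited by having 3 arrays per group.

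The 12 mandible arrays in 4 groups were fitted with lmFit and eBayes (limma 3.58.1, R 4.3.3, two-sided tests), with Benjamini-Hochberg adjustment over all genes tested and a threshold of 0.05. The 3 comparisons were distal minus proximal in mutants, the same in controls, and mutant minus control of these, called the genotype difference. The mutant and control comparisons share no array, but share the fit's estimate of the spread. The pipeline was tested on simulated data. Same-numbered distal and proximal arrays deviated together (correlations 0.349 to 0.436 in mutants and 0.459 to 0.537 in controls, all other pairings below 0). Deviations were taken from means of 3 arrays, so positive same-number values push the others below 0 on average and those add little. The numbers were taken to pair the ends, and a fit with the replicate block was run beside the main one. Values, p-values and calls are from the main fit, which ignores the pairs, unless the block is named.

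Members, gene lists (31 lists, 587 entries) and tests were chosen with earlier results of these data known. Named genes are the 15 largest each way in mutants with no overlap between ends, up to 8 each way with a called genotype difference, 6 each way called only in controls, Tgfbr2, all tested distal, proximal, endothelin, forkhead and Hox list members, and up to 6 per other list. Sex-linked and clone-named genes were skipped. Ngfr was added as the 1 gene called in opposite directions, after its values were seen, and not every gene the rule allows is printed. Alternatives covered the samples fitted, filters, probe set choice, normalization, variance model, array weights, the block, marker covariates, each array left out and, added later, the poly-A spike mean.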

Additional observations from a re-analysis of the deposited data

Results flagged for a closer look

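The difference between ends differed between genotypes, by the test of that difference itself (limma, adjusted p under 0.05), for 11 genes. The distal minus proximal difference was more positive in mutants than in controls by 1.38 for Qrfpr, 1.06 for Mtmr7, 0.95 for Adamts18 and 0.65 for Kirrel3 (log2). It was more negative in mutants, with values of -1.22 for Aspn, -1.20 for Cp, -1.08 for Iigp1, -1.04 for Ccn1, -1.01 for Zfp469, -1.01 for Agt and -0.92 for P2ry10b. Adamts18 and Kirrel3 had differences of opposite sign, 0.60 and 0.46 in mutants and -0.35 and -0.18 in controls. Kirrel3 was above the array median only in the 3 mutant distal arrays, so it entered the test through the arrays where it was high. Its control difference and its sign are read from dim values. Among mandible arrays, Agt and Iigp1 were above the median only in the 3 mutant proximal arrays, so their control differences are also read from dim values. Each of the 11 kept its call under 6 to 9 of 21 or 22 alternatives.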

How the results depend on the processing

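Mutant calls (3451) came to 89 with the muscle and chondrocyte means as covariates and 823 with the poly-A spike mean, and control calls (1018) to 1664 with array weights, 1663 with the replicate block and 312 with the spike mean. Control calls shared with mutants (900) came to 1414 with array weights, 1428 with the block, 83 with the marker covariates and 272 with the spike mean. With the marker covariates control calls came to 1212, so the shared calls were 6.85% of them, against 88.4% in the main fit. Genotype differences (11) came to 0 with all 24 arrays, 0 with either covariate fit, 7 with averaged probe sets, 24 with a robust variance trend, 60 with array weights and 82 with the block. Of the mutant calls 61.3% were higher, against 33.9% with the spike mean. Leaving out 1 array at a time gave 2227 to 3452 mutant calls, 562 to 1200 control calls, 0 to 33 genotype differences and 502 to 1009 shared calls. Of 158 named genes called in mutants, 158 kept the call with the block, 132 with all 24 arrays, 78 with the spike mean and 24 with the marker covariates. Of 81 named genes not called, 28 were called with the block. The signs of 15 mutant differences turned with the marker covariates: Acan 0.41, Cnmd 0.49, Col2a1 0.52, Meis2 -0.47, Foxp1 -0.0689, Foxq1 -0.0816, Thbs4 0.14, Tnmd 0.31, Tgfb1 0.0468, Cdon -0.0312, Ehf -0.33, Tie1 0.10, Gjb2 -0.38, Gjb6 -1.33 and Egln1 -0.0629. These means were themselves lower in distal mutant arrays, and the chondrocyte mean holds some of those genes. Mbp came to -0.45 with averaged probe sets, which disagreed. The cause of the other changes was not tested. Dim genes near the array median limit what small differences can show.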

Other observations

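Of all genes tested, 26.9% were called between the ends of the mutant mandible. Adipogenic genes (25%) and hypoxia and glycolysis genes (21.1%) had shares near or below that, and the smooth muscle and mural list had 4 of 8. Among 8 adipogenic genes 0 were higher and 2 lower in the distal end (median -0.17), and Lpl, lipoprotein lipase, had the larger difference, -1.91 in mutants and -0.65 in controls, with a genotype difference that did not pass (adjusted p = 0.13, limma). Of the smooth muscle and mural genes 1 was higher and 3 were lower, including the pericyte gene Rgs5 at -0.48 in mutants and -0.77 in controls, whose mutant call was lost without distal mutant array 1 or 2 or proximal mutant array 1. Among 19 hypoxia and glycolysis genes 3 were higher and 1 was lower: the glucose transporter Slc2a1 differed by 0.98, and P4ha1, a collagen prolyl hydroxylase subunit, by -1.05 in mutants and -0.59 in controls. With the replicate block 7 of the 19 were called, a share of 36.8%, below the 39.6% of all genes tested.

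Salivary gland genes had 3 higher and 2 lower of 8 tested in mutants, a share of 62.5% against 26.9% of all genes tested. Controls had 1 higher and 1 lower, and both were called the same way in mutants. Elf5, an epithelial ETS factor, differed by 1.76 and Bhlha15, a secretory cell factor, by -0.91 in mutants. Of 7 head muscle regulators 3 were higher and 0 lower in mutants (42.9%), against 4 higher and 0 lower in controls. Of the 4 control calls, 3 were called the same way in mutants. Erythroid genes had 0 called of 5 in either genotype. With the replicate block 2 were called in mutants (40%, near the 39.6% of all genes tested). The embryonic globin Hbb-y differed by 0.10 in mutants and 0.11 in controls.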
